A study of Mus musculus with 4 samples.

Results

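The members described here were 1584 genomic bins of 10 kb that took part in 10 to 19 listed chromatin interactions and whose partner bins all lay on one side, at lower or at higher coordinates. They were chosen from 56427 distinct anchors (2.81%) and are called one-sided anchors. Adjacent bins often repeat a contact: once adjacent interactions were merged, 61 anchors met the rule. The 1595 anchors with the same number of interactions and partners on both sides, called two-sided anchors, served for comparison. The list of 99041 interactions was read as H3K27ac HiChIP, an assay that ligates chromatin fragments lying close together in the nucleus and enriches pairs in which a fragment carries H3K27ac, a histone acetylation found at active enhancers and promoters. The sample titles name ChIP-seq, whereas the protocol describes a HiChIP kit and the list holds pairs of bins. The labels describe 2 libraries of mouse brain tumor with genotype YAP-M fusion, a fusion protein of the transcriptional co-activator YAP, and 2 libraries of wild-type mouse neural stem cells kept in culture with EGF, basic FGF and heparin. The tumor libraries carry the same culture text as the neural stem cells, and the sources used here do not give the number of animals, the promoter behind the fusion or the pooling of tumors. The list was read from its name as that of the YAP-M tumor. It names no library and holds no counts, so depth is unknown, no value has a replicate error and no test was run. Intervals are exact (Clopper-Pearson) 95% intervals, which cover counting error only and are too narrow because adjacent bins are not independent.

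As background, chromatin in the nucleus is extruded into loops by cohesin, and extrusion stalls at sites bound by CTCF in one orientation. A site that holds one end of many loops draws a stripe of contacts to one side. Promoters and enhancers that carry H3K27ac also contact each other within such loops, and in neural progenitors many lineage genes have enhancers far from their promoters.

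The sequences below belong to one-sided anchors and are shown because results given further on refer to them. These are RefSeq sequences of GRCm38.p6, written 5′ to 3′. The first is the promoter of F3, a YAP/TEAD target gene that encodes the coagulation tissue factor, at chr3:121723287-121723586 on the plus strand. Capitals mark its AP-1 words (TGANTCA).
F3: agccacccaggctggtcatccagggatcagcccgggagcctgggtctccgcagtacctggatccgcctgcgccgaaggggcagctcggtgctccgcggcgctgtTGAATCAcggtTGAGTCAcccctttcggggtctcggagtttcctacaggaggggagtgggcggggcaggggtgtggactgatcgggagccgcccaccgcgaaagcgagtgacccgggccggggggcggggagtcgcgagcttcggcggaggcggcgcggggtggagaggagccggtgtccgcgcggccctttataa
The promoter of Glul, which encodes glutamine synthetase, lay at chr1:153899679-153899978 on the plus strand, in the anchor with the longest unbroken stripe. It held none of the words searched.
Glul: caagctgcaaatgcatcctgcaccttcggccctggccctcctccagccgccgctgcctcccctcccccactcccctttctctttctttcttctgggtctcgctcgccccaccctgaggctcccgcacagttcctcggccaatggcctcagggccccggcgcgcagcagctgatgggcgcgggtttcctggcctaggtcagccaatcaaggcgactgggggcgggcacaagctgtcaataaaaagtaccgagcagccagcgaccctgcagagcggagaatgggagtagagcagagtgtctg
The promoters of Nfat5 (chr8:107293220-107293519, plus strand), Mgat1 (chr11:49243941-49244240, plus strand) and Tsc22d1 (chr14:76415571-76415870, plus strand) each held a word of the CTCF core, marked in capitals. Nfat5 encodes an osmotic stress transcription factor, Mgat1 a glycosyltransferase of the Golgi and Tsc22d1 a leucine zipper protein. These 3 were chosen from 8 promoters after their words were seen.
Nfat5: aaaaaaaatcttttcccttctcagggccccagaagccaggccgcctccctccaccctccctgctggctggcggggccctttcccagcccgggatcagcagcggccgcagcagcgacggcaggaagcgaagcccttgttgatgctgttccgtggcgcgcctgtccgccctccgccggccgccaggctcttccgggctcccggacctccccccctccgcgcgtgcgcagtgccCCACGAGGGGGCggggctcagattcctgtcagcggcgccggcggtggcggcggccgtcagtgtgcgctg
Mgat1: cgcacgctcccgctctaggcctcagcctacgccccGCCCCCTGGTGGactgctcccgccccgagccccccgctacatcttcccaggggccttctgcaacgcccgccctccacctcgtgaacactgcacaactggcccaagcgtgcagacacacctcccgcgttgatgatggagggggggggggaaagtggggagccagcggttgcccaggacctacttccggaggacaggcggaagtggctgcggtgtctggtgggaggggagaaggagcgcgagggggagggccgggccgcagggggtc
Tsc22d1: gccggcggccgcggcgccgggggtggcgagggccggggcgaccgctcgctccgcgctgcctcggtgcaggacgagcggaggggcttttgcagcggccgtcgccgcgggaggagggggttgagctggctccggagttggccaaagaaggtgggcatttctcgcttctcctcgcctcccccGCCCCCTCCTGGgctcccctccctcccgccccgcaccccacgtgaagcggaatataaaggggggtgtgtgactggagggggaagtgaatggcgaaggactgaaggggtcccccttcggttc
Of 919 autosomal microRNA hairpins, 17 lay in one-sided anchors, 1.85% of the hairpins, and 21 in two-sided anchors. The mature forms shown are those of the neural microRNA miR-9, of let-7i, of miR-193a and of miR-1897, with the seed (bases 2 to 8) in capitals. Among the 28 mature forms of the 17 hairpins, 28 seeds occurred, so none was shared.
miR-9-5p: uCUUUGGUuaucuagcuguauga
miR-9-3p: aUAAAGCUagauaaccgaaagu
let-7i-5p: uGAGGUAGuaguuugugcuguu
miR-193a-3p: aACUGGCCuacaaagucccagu
miR-1897-3p: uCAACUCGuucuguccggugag

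One-sided anchors were about as frequent as two-sided ones. They made up 49.8% of the 3179 anchors with 10 to 19 interactions, between 41.5% on chromosome 17 and 61.0% on chromosome 18. Partners lay at higher coordinates for 756 and at lower coordinates for 828. The number of interactions chose the members: 362 had 10 and 57 had 19, whereas 542 one-sided anchors with 9 interactions and 42 with 20 lay just outside. The share with partners on one side was 82.3% among anchors with 2 interactions, 55.0% at 9, 49.7% at 10, 54.8% at 19 and 50% at 20. Another 407 anchors missed the rule by a single partner on the other side. Each class had a median of 12 interactions per anchor. The one-sided anchors took part in 19636 interactions (19.8% of the list) and the two-sided anchors in 19389 (19.6%). There were 664 interactions that joined a pair of one-sided anchors.

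The question behind the comparison was what, besides side, set these anchors apart from anchors of equal degree. Compared with two-sided anchors, one-sided anchors lay less often at an end or start site of a coding gene, and more often inside one. An anchor counts as being at a gene end if its bin comes within 2.5 kb of where a coding gene begins or ends in the annotation. Of the one-sided anchors, 670 (42.3%, interval 39.8 to 44.8%) were at a coding-gene end, against 48.8% of two-sided anchors (interval 46.3 to 51.3%) and 33.0% of all anchors. The one-sided share was the lower on 16 of 19 autosomes. A start site of transcription, known for the 16457 of 20665 coding genes with a RefSeq promoter entry, lay in 359 one-sided anchors (22.7%, interval 20.6 to 24.8%), against 32.4% of two-sided anchors (interval 30.1 to 34.7%) and 15.8% of all anchors. No promoter entry of chromosome 18 was used, so its 50 one-sided and 32 two-sided anchors count as having no start site; without them the shares were 23.4% (interval 21.3 to 25.6%) and 33.0% (interval 30.7 to 35.4%). On the other autosomes the share was lower for one-sided anchors on 17 and higher on 1. Conversely, 23.4% of one-sided anchors lay inside a coding gene away from its ends, against 17.9% of two-sided anchors and 34.4% of all anchors. Both classes thus lay inside genes less often than listed anchors in general. Bins outside coding genes made up 34.3% of one-sided and 33.4% of two-sided anchors, whose intervals overlap, and 32.6% of all anchors.

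**Figure D1:**
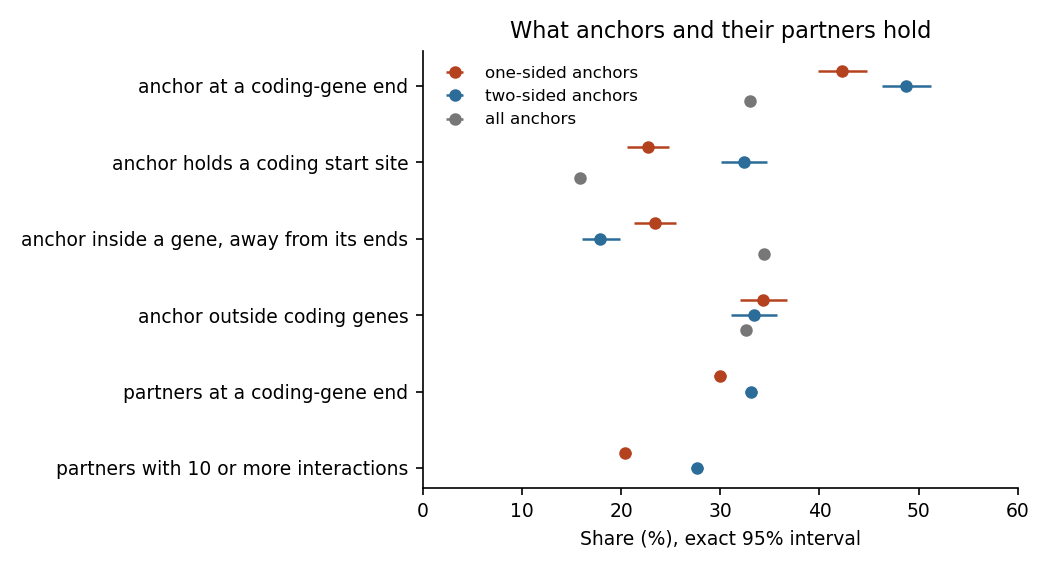
Share of anchors, and of their partners, that hold each feature (x axis, in %), for one-sided anchors, two-sided anchors of the same degree and, for the anchor features, all listed anchors; points are shares and bars exact 95% intervals. The start-site share is 22.7% for one-sided anchors and 32.4% for two-sided anchors.

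All 4 classes with a partner on the other side had higher shares than one-sided anchors. Anchors with a single partner on the other side had a start site in 31.9% (interval 27.4 to 36.7%) and those with 2 in 29.6%, while those with 3 to 4 had 35.2% and those with 5 to 9 had 31.4%. At coding-gene ends, the share was 42.3% with no partner on the other side. In the same order of classes it was 49.4%, 46.3%, 48.6% and 50.7%. The interval of one-sided anchors (39.8 to 44.8%) overlaps those of 3 classes. These are the classes with 1 partner (44.4 to 54.4%), 2 partners (40.9 to 51.8%) and 3 to 4 partners (44.2 to 53.1%). It lies below that of the class with 5 to 9 (45.3 to 56.2%). The shares of the 4 two-sided classes showed no steady trend with the balance of partners.

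Seen from the gene, partners lay on either side. Where the anchor held start sites on 1 strand only, partners lay downstream in 169 of 323 cases (52.3%, interval 46.7 to 57.9%). Where it held 1 end of a coding gene, or several ends that face the same way, the partners lay on the side of the gene body in 207 of 466 cases (44.4%, interval 39.8 to 49.1%) and away from it in the others. Of anchors inside a gene, 12 of 370 one-sided and 9 of 285 two-sided anchors had all partners inside the same gene. Partners inside the same gene were 22.3% for one-sided and 29.3% for two-sided anchors.

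The empty side was not empty of genes or of anchors. Coding-gene ends were more frequent there than on the partner side close to the anchor. Between 20 and 200 kb, a range chosen after the values at 500 kb were seen, one-sided anchors had a mean of 3.30 coding-gene ends on the partner side and 5.12 on the empty side. The partner side held fewer ends at 62.3% of anchors (interval 59.9 to 64.7%) and more at 26.3%, and its mean was the lower on all 19 autosomes. Up to 500 kb the means were 10.9 and 11.7, with fewer ends on the partner side at 51.9% of anchors and more at 42.4%, and up to 1000 kb they were 22.0 and 21.3. Two-sided anchors, turned so that the side with more partners comes first, had means of 3.57 and 4.19 between 20 and 200 kb, with fewer ends on the fuller side at 49.7% (interval 47.2 to 52.2%) and more at 32.4% (interval 30.0 to 34.8%). Their fuller side had the lower mean on 17 autosomes, so the asymmetry had the same direction in both classes. The asymmetry was present for one-sided anchors at gene ends (means of 4.54 and 6.28), inside genes (2.31 and 4.32) and outside coding genes (2.44 and 4.23). In steps of 50 kb, the lowest value was 0.801 ends, at 50 to 100 kb on the partner side, and the highest was 1.72, in the first 50 kb of the empty side. Gene density in all differed little: within 20 to 500 kb of either side, one-sided anchors had a median of 17 coding-gene ends and two-sided anchors 15.

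**Figure D2:**
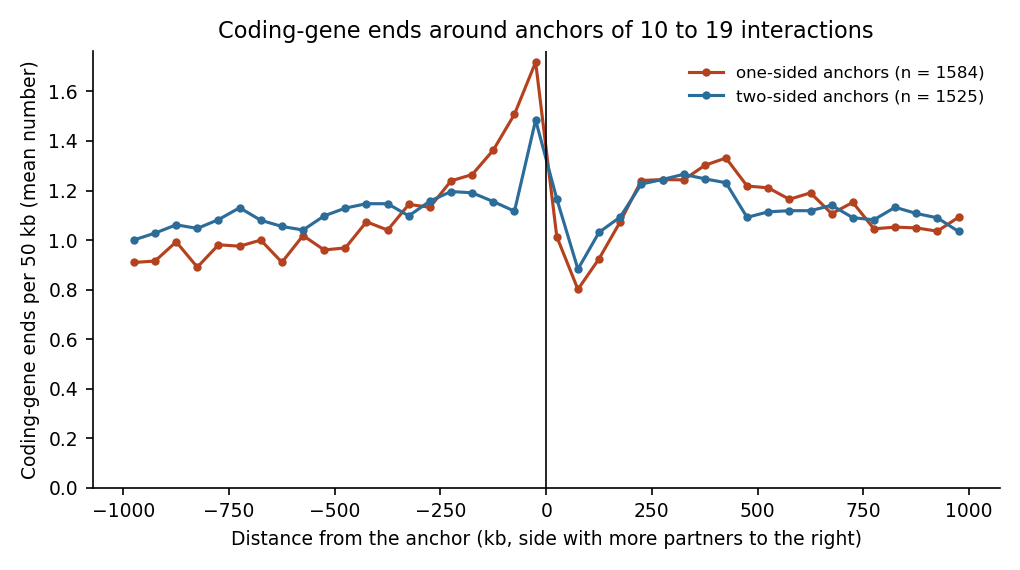
Mean number of coding-gene ends per 50 kb (y axis) by distance from the anchor in kb (x axis), with the side that has more partners to the right; lines join the means of 1584 one-sided and 1525 two-sided anchors, two-sided anchors with equal sides left out. For one-sided anchors the means fall to 0.801 at 50 to 100 kb on the partner side and reach 1.72 in the first 50 kb of the empty side.

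Listed anchors were present on the empty side as well. Within each anchor's reach, the distance to its farthest partner, the partner side held a median of 12 listed anchors besides the partners themselves and the empty side 13. Only 65 one-sided anchors (4.10%) had no listed anchor there. At 1513 one-sided anchors (95.5%) an adjacent bin was a one-sided anchor of the same direction, counted at any degree. This share has no comparison value and was largely set in advance. A bin with 1 interaction is one-sided by definition, and adjacent bins often repeat a contact. With the neighbour also held to 10 to 19 interactions, the count was 491 of 1584 for the same direction and 0 for the opposite direction. The share with an anchor of the opposite direction nearby depended on the window. Within 50 kb on the empty side, 345 (21.8%, interval 19.8 to 23.9%) had an anchor that pointed away from them, and 19 (1.2%) had one with 10 or more interactions. On the partner side, an anchor of the opposite direction points back toward the one-sided anchor. The values there were 179 (11.3%) at any degree and 0 with 10 or more interactions. Counted at any degree, the shares were 4.55% on the empty side and 0.758% on the partner side within 20 kb, and 46.7% and 44.9% within 100 kb. On the partner side at 10 kb, 86.7% of bins were one-sided anchors of the same direction, and at 190 kb 39.5% were anchors of the opposite direction, which face back. Partner bins are themselves among the bins on that side, so this part of the profile follows in part from the rule.

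**Figure D3:**
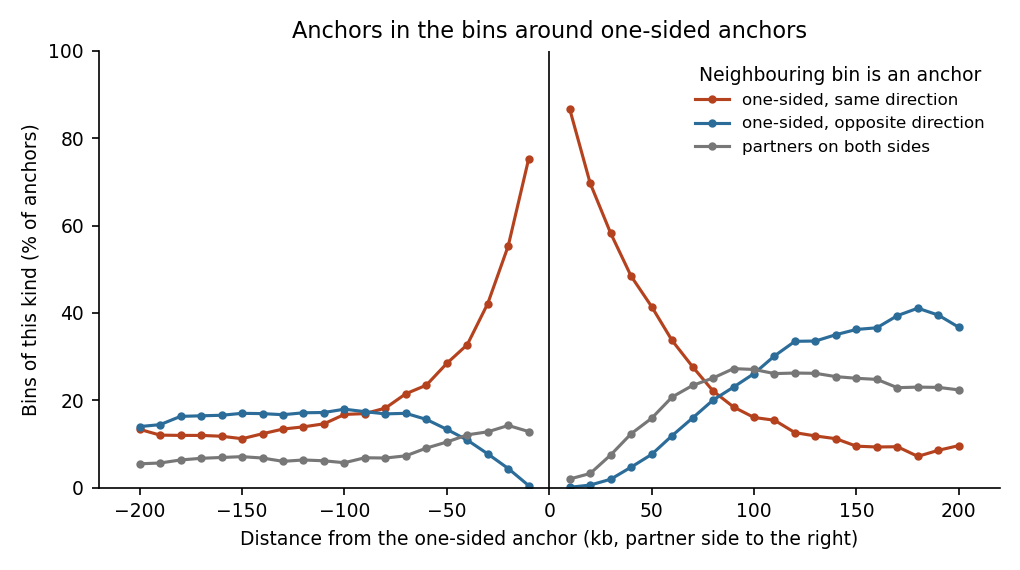
Percentage of one-sided anchors (y axis) at which the bin at a given distance in kb (x axis, partner side to the right) is an anchor of the same direction, of the opposite direction or with partners on both sides. Same-direction anchors take up 86.7% of bins at 10 kb on the partner side, and opposite-direction anchors 39.5% at 190 kb.

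The median partner distance was close to that of two-sided anchors. The median distance from a one-sided anchor to its partners had a median of 210 kb (quartiles 155 and 310 kb), against 200 kb for two-sided anchors (quartiles 145 and 290 kb), and was larger on 10 autosomes, smaller on 7 and equal on 2. The farthest partner lay at a median of 370 kb from one-sided and 410 kb from two-sided anchors, a difference in that direction on 14 autosomes. The nearest lay at 80 and 70 kb. For listed anchors in general, the median distance was 160 kb, the farthest 210 kb and the nearest 110 kb. Those anchors had a median of 2 interactions. Interactions that pass over the anchor from one side to the other, without touching it, numbered a median of 17 at one-sided anchors (quartiles 6 and 34) and 21 at two-sided anchors (quartiles 7 and 55), and the one-sided median was the lower on 14 autosomes. Listed anchors in general had a median of 12 such interactions (quartiles 4 and 28), fewer than either class. Crossing interactions were absent at 95 one-sided (6.0%) and 76 two-sided (4.76%) anchors. So most one-sided anchors were crossed by interactions of other bins.

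Partners of one-sided anchors, all on one side by the rule, filled a median of 47.6% of the bins between the nearest and the farthest partner, in a median of 5 separate runs of adjacent bins, and the longest run had 5 bins or more at 63.1% of anchors. For two-sided anchors, taken side by side, the filled share was 37.5% and the longest run had 5 bins or more at 46.0%. A two-sided anchor divides its partners over its sides, which shortens runs by construction: anchors with a single partner on the other side had a median longest run of 5 bins, equal to that of one-sided anchors. At 36 one-sided anchors all partners formed 1 unbroken run. Merging of adjacent interactions left a median of 4 contacts per one-sided anchor and 5 per two-sided anchor.

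**Figure D4:**
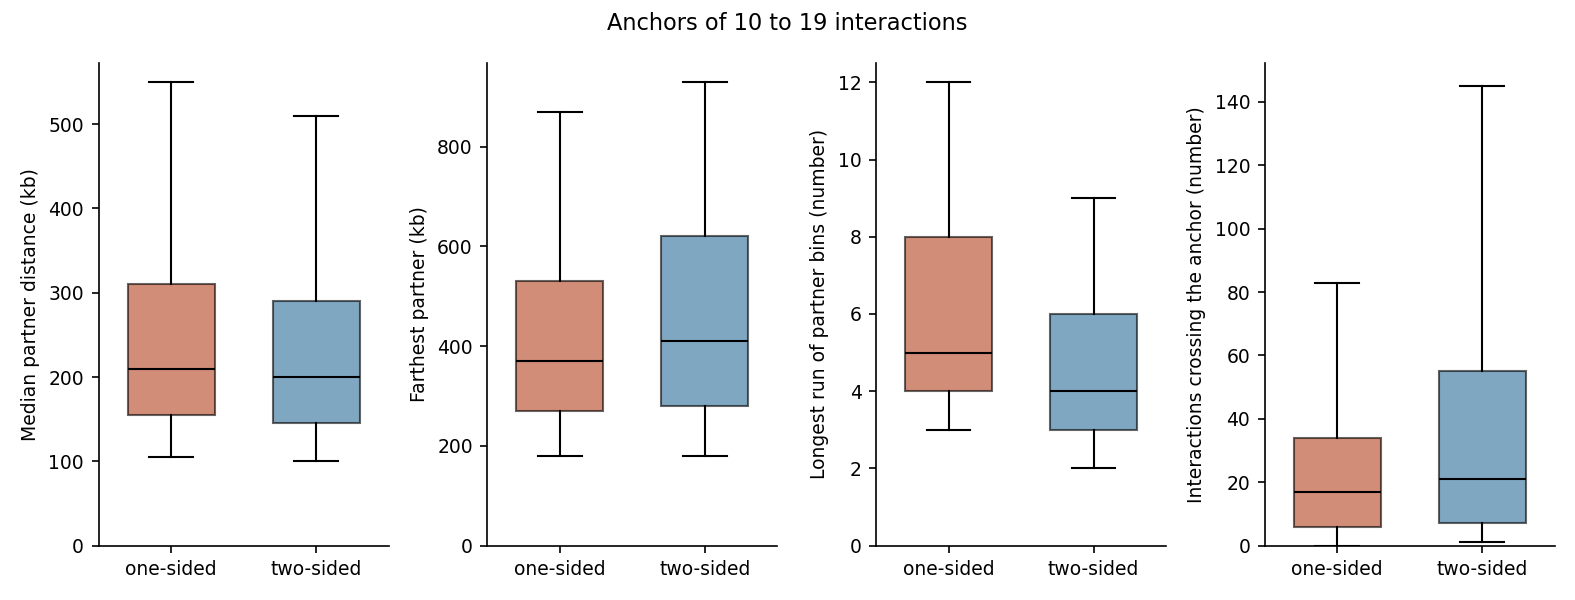
Median partner distance (kb), farthest partner (kb), longest run of adjacent partner bins (number) and interactions crossing the anchor (number) for 1584 one-sided and 1595 two-sided anchors; boxes show quartiles with the median, whiskers the 5th and 95th percentiles. The median of crossing interactions is 17 at one-sided and 21 at two-sided anchors.

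The partners were less connected bins than the partners of two-sided anchors. Over all listed anchors the median was 2 interactions and the upper quartile 4. Partners were counted anew for each anchor, so a bin can count more than once. Partners of the same anchor are not independent either, so intervals over partners are too narrow. Of 20300 partner positions of one-sided anchors, 20.4% had 10 or more interactions of their own (interval 19.9 to 21%), against 27.7% of the 20437 of two-sided anchors (interval 27.0 to 28.3%), and the one-sided share was the lower on all 19 autosomes. In two-sided anchors this share was 24.9% with 1 partner on the other side, 26.3% with 2, 29.5% with 3 to 4 and 29.3% with 5 to 9. Among partners of 10 or more interactions, 42% of those of one-sided anchors were one-sided toward the anchor, against 48.7% of those of two-sided anchors. Partner bins were at a coding-gene end in 30.0% and 33.1%, lower for one-sided anchors on 13 autosomes. Same-side partners at least 20 kb apart were joined to each other in 13.5% of pairs for one-sided and 15.1% for two-sided anchors. Of the one-sided anchors away from coding-gene ends, 821 of 914 (89.8%) had a coding-gene end among their partners, against 752 of 817 two-sided anchors (92.0%).

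Genes of the pathways and cell types of this tumor were next placed among the anchors, with 14 lists that cover the Hippo and Notch pathways, YAP/TEAD targets, AP-1, the cell cycle, neural stem cells and other cells of the brain. Of 217 list genes that could be scored, 11 had an end in a one-sided anchor (5.07%), where 3.63% of all coding genes did, and 12 had one in a two-sided anchor (5.53%), where 4.68% of all coding genes did. Both shares stand near those of all genes. The list of YAP/TEAD targets had 3 of 22 (Ccn2, F3 and Dock5) and the Notch list 2 of 18 (Maml2 and Hey1). The Hippo (Map4k4), cell cycle (Ccnd2), astrocyte (Glul), oligodendrocyte (Myrf), microglia (Adgre1) and ependymal (Tmem212) lists had 1 each. The neural stem cell, AP-1, neuronal, endothelial, pericyte and broadly expressed lists had 0. Some of their genes lay above the range: 5 of 19 neural stem cell genes had an end bin with 20 or more interactions. So did 2 of 12 AP-1 genes and 2 of 10 pericyte and fibroblast genes, and 0 in the other lists just named. Of all list genes 22 had such an end bin, and of the 20665 coding genes 342. An end with any listed interaction was found for 65.7% of all coding genes. Among the cell type lists it was found for all 15 genes of microglia, all 12 of astrocytes, 18 of 19 of neural stem cells, 9 of 10 of the oligodendrocyte lineage, 8 of 10 of pericytes and fibroblasts, 9 of 12 of endothelial cells, 10 of 16 of neurons and 10 of 20 of ependymal cells. For the broadly expressed genes it was 13 of 14.

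Among the YAP/TEAD targets, Ccn2, a matricellular protein gene, lay whole within an anchor at chr10:24590001-24600000. Its 13 partners all lay lower, 100 to 230 kb away, and filled 92.9% of the bins in that span. No interaction crossed this anchor and no partner held a coding-gene end. F3 had a one-sided anchor at each end. The one with its start site, chr3:121720001-121730000, had 15 partners at lower coordinates, 14 of them adjacent, and the promoter printed above lay in it. The other, chr3:121730001-121740000, had 12 partners, also lower. Both reached an end of the choline transporter-like gene Slc44a3. The anchor at the high-coordinate end of Dock5, a guanine nucleotide exchange factor for Rac, had 17 partners at lower coordinates, 40 to 260 kb away. They included an unbroken run of 14 bins, which lay inside Dock5 itself, and ends of Cdca2 and Kctd9. The anchor at Ccn1, another matricellular gene of the list, missed the rule, with 12 partners higher and 1 lower. Ccn1 and the two-sided anchors of Hes1 and Tead1 below were chosen after their values were seen.

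The Notch genes differed in direction. The anchor at the high-coordinate end of Maml2, a mastermind-family co-activator, chr9:13710001-13720000, had 18 partners at lower coordinates, 170 to 490 kb away, inside the gene and beyond its other end, with ends of Ccdc82 and Jrkl among them. Hey1, a transcriptional repressor gene of the Notch list, lay whole in chr3:8660001-8670000 with 10 partners, all higher and at 100 to 290 kb. The bin also held the uncharacterised LOC115489673. Hes1 had a two-sided anchor with 7 partners on each side. In the Hippo list, the kinase gene Map4k4 had 13 partners lower than its low-coordinate end, reaching 330 kb, while both anchors of Tead1 with this degree were two-sided.

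Among cell type genes, Glul had 3 adjacent one-sided anchors, chr1:153890001-153920000. They had 19, 19 and 13 partners, all higher. The first of the bins, which holds the start site of Glul and of Teddm1a, had its 19 partners in 1 unbroken run at 110 to 290 kb, the longest run of all one-sided anchors. None of these partners held a coding-gene end. Myrf, a regulator of myelin genes, shared the anchor at its low-coordinate end with Fen1 and Tmem258. The known start sites in this bin were those of Fen1 and Tmem258, not of Myrf. Of its 15 partners, 10 were at coding-gene ends, among them Fads2, Fads3, Best1 and Incenp, and no interaction crossed the anchor. Adgre1, which encodes the macrophage antigen F4/80, had the most separate runs among one-sided anchors of list genes, 9 for 10 partners, with ends of 11 other coding genes. Ccnd2, a D-type cyclin gene, had 12 partners higher than its high-coordinate end with an end of Parp11, and Tmem212 had 11 lower with an end of Fndc3b.

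**Figure D5:**
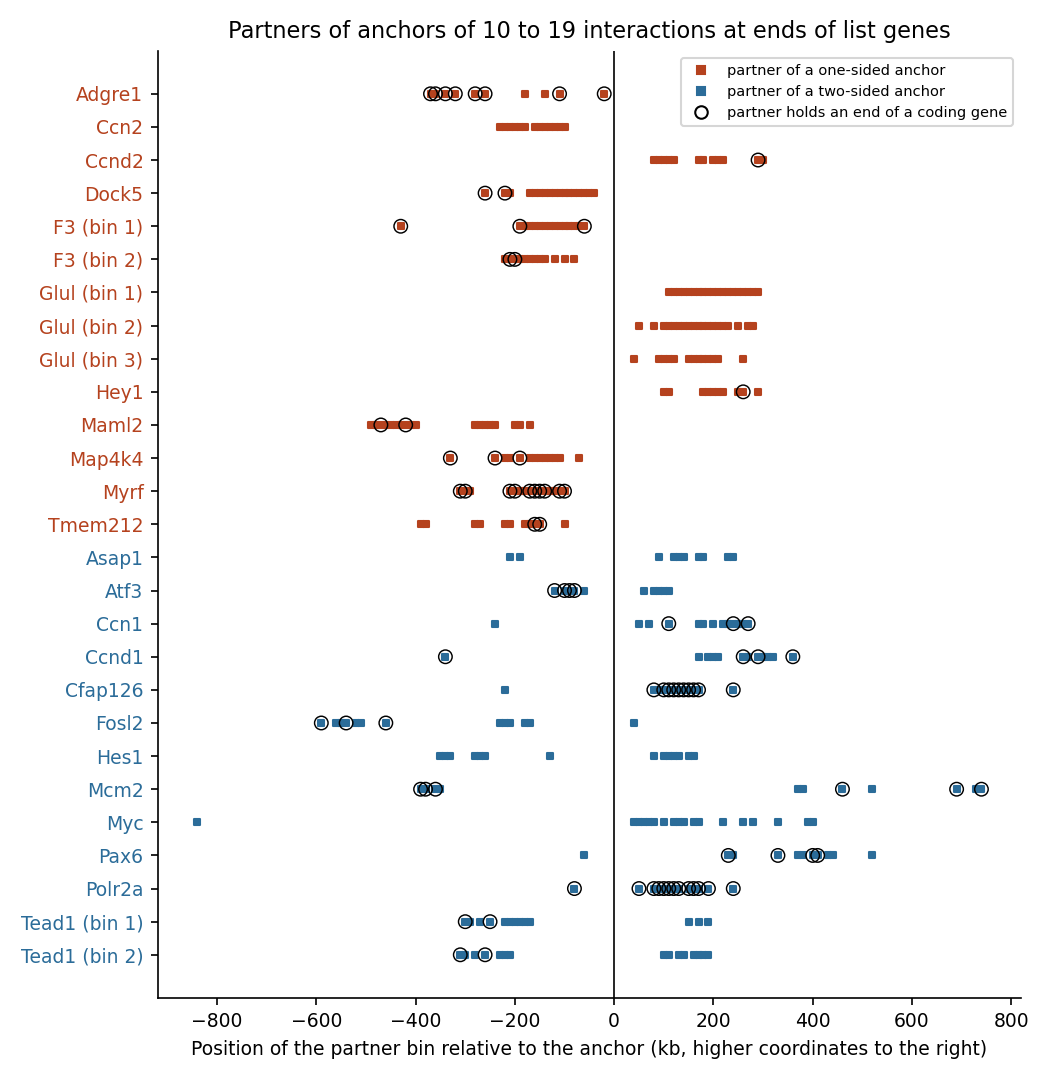
Position of each partner bin relative to its anchor in kb (x axis) for the anchors of 10 to 19 interactions at ends of list genes (rows), one-sided anchors above two-sided ones; circles mark partners that hold an end of a coding gene. The 19 partners of the first Glul bin form 1 block from 110 to 290 kb.

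The one-sided anchors with the farthest partners used the full distance allowed. Partners reached 1000 kb, the longest distance in the list, at 9 anchors. On chromosome 16 a pair of them faced each other: the anchor at 75760001 to 75770000, which holds an end of Hspa13, had 17 partners, all higher, and the anchor at 76760001 to 76770000 had 11, all lower, and the pair was joined by an interaction of 1000 kb. Nrip1, a nuclear receptor co-repressor gene between them, had an end among the partners of each. Other anchors of this kind reached Trib2 from Lpin1 (16 partners, lower), Nr4a3 and Erp44 from Sec61b and Alg2 (12, higher), Irs1 from inside Nyap2 (11, higher) and Eya1 from outside coding genes (17, higher, up to 990 kb). By median distance, the leading anchor lay inside Prkg1, with a median of 905 kb and an end of Cstf2t among 14 partners. The bins ranked 2, 3 and 7 lay side by side at chr13:102640001-102670000, outside coding genes. Their medians, from the lowest bin to the highest, were 855, 890 and 885 kb, and their 18, 15 and 16 partners were all lower and included an end of Pik3r1, a regulatory subunit of PI3-kinase. An anchor at chr4:81560001-81570000 had 15 partners, all higher, with a median of 860 kb, and held among them ends of Nfib, a nuclear factor I gene of the glial lineage.

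Other one-sided anchors were scattered or compact. The most separate runs, 12, were found at chr10:44990001-45000000, with 18 partners and ends of Prdm1 and Atg5, and at chr15:94190001-94200000, with 13 partners and an end of Prickle1. The anchor at chr14:77000001-77010000 had 18 partners in 11 runs, of which 13 had 10 or more interactions, and reached Tsc22d1 and Serp2. The promoter of Tsc22d1 shown above lay in another one-sided anchor, and that anchor also pointed lower. Unbroken runs of 18 bins were found at chr2:167890001-167900000, with ends of Cebpb and Snai1 among its partners, and inside Nxpe3 at chr16:55850001-55860000, with no coding-gene end. Runs of 17 bins included anchors at Zfp217, reaching Bcas1, at a start site of Hic1, reaching Srr, and at a start site of Net1, reaching Asb13 and Tasor2.

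Adjacent one-sided anchors of the same direction formed 1307 runs, of which 1093 were single bins, 168 were pairs, 33 had 3 bins, 10 had 4, 2 had 5 and 1 had 6. The longest, 6 bins at chr2:144230001-144290000 over ends of Snx5 and Mgme1, had 78 interactions, all lower, with 18 partner bins that held ends of Dstn, Rrbp1 and Bfsp1. A run of 5 bins at chr16:55810001-55860000, with ends of Nfkbiz and Nxpe3, had 77 interactions with 25 partner bins and no coding-gene end among them. Another of 5 bins lay outside coding genes at chr10:118080001-118130000 and reached Rap1b and Nup107. A run of 4 bins at Poc1b pointed to Dusp6, a phosphatase of ERK, and 1 of 4 bins at Cd200r1 to Ccdc80, Atg3, Slc35a5 and Cd200r3. Chosen after the values were seen, runs of 4 bins at Klf3 reached Tbc1d1, and at the chemokine genes Cxcl1 and Cxcl2 reached Cxcl3, Cxcl5, Cxcl15, Pf4 and Ppbp.

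The microRNA genes in one-sided anchors included Mir9-2 at chr13:83730001-83740000, outside coding genes, with 14 partners, all higher, at 250 to 890 kb, and with an end of Tmem161b. The anchor of Mirlet7i at chr10:122980001-122990000 had 13 partners, all lower, reaching 440 kb, of which 5 had 10 or more interactions. Mir193a lay in an anchor with 12 partners, all higher, reaching 260 kb and an end of Utp6. Mir1897 lay in an anchor with 10 partners, all lower and with no coding-gene end among them. These 4 hairpins were chosen after their values were seen, from 17.

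CTCF words in promoters of one-sided anchors pointed both ways. The words searched on both strands were CCANNAGGGGGC, CCANNAGGTGGC, CCANNAGAGGGC and CCANNAGATGGC, in windows of 300 bases that run from 250 before to 50 after the start site. None of the words searched contains another. A CTCF word was found in 8 of 459 promoters in one-sided anchors (1.74%, interval 0.755 to 3.41%), in 13 of 683 in two-sided anchors (1.90%) and in 1.09% of all 20085 promoters of coding genes. A word was counted as pointing to the partners if it lay on the plus strand with partners higher or on the minus strand with partners lower. Of the 8 words, 4 pointed to the partners (interval 15.7 to 84.3%), among them those of Mgat1 and Tsc22d1, and 4 away, among them that of Nfat5. Most of each bin was not covered by a promoter window.

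The AP-1 word TGANTCA stood in 13 of 459 promoters in one-sided anchors (2.83%, interval 1.52 to 4.79%), including that of F3 with a pair of copies and those of Il6 and Emp1, against 44 of 683 in two-sided anchors (6.44%, interval 4.72 to 8.55%) and 7.06% of all promoters. The TEAD word GGAATG stood in 49 (10.7%, interval 8.0 to 13.9%), against 64 (9.37%) in two-sided anchors and 13.4% of all, and among the 49 were promoters of Igfbp5, Pou3f3 and Sall1. Il6, Emp1, Igfbp5, Pou3f3 and Sall1 were chosen after their values were seen. The full palindromic NFI motif was found in 0 promoters of one-sided anchors (interval up to 0.80%), in 0 of two-sided anchors and in 0.0349% of all. Median GC content was 61.3% in one-sided and 62.0% in two-sided anchors, above 57.0% over all promoters.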

How the data were processed

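Positions of interactions were used as the authors deposited them; the assay was taken as H3K27ac HiChIP from the labels' protocols and the paired bins, although the sample titles name ChIP-seq. Per the file header, the list holds a chromosome, start and end for each of the 2 anchors, in other words coordinates in base pairs, with no count or score and no sample names. The aligner BWA and the build mm10 are named in the submitters' processing notes; for the caller, its threshold and any pooling, the sources used here give nothing.

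Each distinct 10 kb bin was given its number of listed interactions and the side of each partner; bins with 10 to 19 were divided into one-sided and two-sided anchors. Gene ends, start sites, promoters and microRNAs came from RefSeq tables of GRCm38.p6, the assembly of mm10. Counting was done with Python 3.11.15, pandas 2.3.3 and SciPy 1.17.1, and tested on simulated lists. Named genes were the list genes at one-sided anchors, the coding genes at or reached by the 10 anchors leading by farthest partner, median distance, number of runs or longest run, and those at the 5 longest runs of adjacent anchors; not all are described. The members, lists and rules were chosen with earlier results of these data known. No comparison with neural stem cells was made, as no list of theirs was used here.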

Additional observations from a re-analysis of the deposited data

How the results depend on the processing

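No paired analysis was possible because interactions were deposited as 1 list with no replicate numbers. Of 82 alternative values for 20 results, 50 stayed inside the interval of the reported value or, for counts, within 1.5 times. The number of one-sided anchors was 61 after merging adjacent interactions, 827 with 12 to 17 interactions and 2878 with 8 to 21; allowing 1 partner on the other side gave a share of 62.6% of anchors with 10 to 19 interactions. Shares at coding-gene ends, one-sided first, were 34.5% and 42.6% with a window of 0 kb, 47.9% and 51.8% with 5 kb, 60.1% and 66.3% for all annotated genes, and 19.6% and 24.4% by bin midpoint, so the one-sided share was lower in each. With start sites up to 2.5 kb outside the bin the shares were 27.7% and 36.5%. With 1 anchor kept per run of adjacent bins, start sites lay in 25% of one-sided anchors (34.3% of two-sided), crossing interactions had medians of 14 and 19, and partners of 10 or more interactions made up 18.6% and 26.2%. Filled shares from 20 kb were 35.5% and 21.3%. Opposite anchors on the empty side were found at 4.55% within 20 kb and 46.7% within 100 kb. More coding-gene ends lay on the partner side at 26.3% (20 to 200 kb) and 50.2% (20 to 1000 kb), and fewer at 62.3% and 47.9%; at 1000 kb the order turned. Leaving out a chromosome lowered partners of 10 or more interactions to 19.8% for one-sided and 27.0% for two-sided anchors, put one-sided partners at coding-gene ends at 29.0 to 30.7%, and lowered those of two-sided anchors to 32.0%. The alternatives for start sites, two-sided gene ends, gene sides, crossing and partner degree were chosen after seeing the data, other than leaving out chromosomes. Depth is unknown, so a partner that is not listed was not detected rather than absent, and strength could not be compared.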
